A study of Mus musculus with 6 samples.

Results

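The genes of the proteasome and of its assembly factors were measured in mouse natural killer (NK) cells, lymphocytes of the innate immune system that kill virus-infected and tumour cells. Members were chosen by symbol, as every gene named Psma to Psmg followed by a digit together with Pomp, without pseudogenes, on probe sets with a single gene symbol. This gave 51 genes of the 19943 measured, read by 57 probe sets. Of these, 49 encode proteasome subunits, their regulators or assembly factors. The other 2, Psmc3ip, a recombination cofactor, and Psme3ip1, a protein that binds the PA28 gamma activator, carry matching names without being parts of the particle.

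The study compared 3 arrays of IL-18 generated cells with 3 arrays of unstimulated cells, each hybridised with total RNA of a separate preparation. Per the labels, cells isolated on NK1.1 received 25 ng/ml of IL-18 and 300 IU of IL-2 overnight, a text given alike for both groups. Among living NK1.1 positive cells without surface CD3, those lacking CD11b and carrying c-kit were sorted as IL-18 generated. Cells with CD11b that lacked c-kit were sorted as unstimulated. Since the growth text is shared, whether the unstimulated cells were cultured or given IL-2 is unknown. The stimulus, the sort gate and any difference in culture cannot be told apart. Strain, sex and age of the mice were not given in the sources used here. In RNA of sorted populations, fewer cells of a type and less RNA per cell cannot be told apart.

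The genes of c-kit and CD11b, the markers that set the sorted groups apart, followed the labels. Throughout, a change is the log2 value in IL-18 generated minus unstimulated cells, given ± its SE from limma with n = 3 arrays on either side. The c-kit gene Kit had a change of 2.79 ± 0.13 and the CD11b gene Itgam one of -5.32 ± 0.11. All 10 NK cell markers examined were lower in the IL-18 generated cells, among them Klrb1c, the NK1.1 gene, at -2.03 ± 0.11. So were all 9 measured monocyte and macrophage markers (median -2.31), all 10 neutrophil markers (median -2.99) and all 7 B cell markers (median -0.62), while 3 of 7 T cell markers, the CD3 chains, were higher. Of 6 dendritic cell markers, 5 were lower and 1, Zbtb46, was higher (median -0.47). Monocyte markers averaged -1.48 to -1.37 on the IL-18 arrays and 1.27 to 1.79 on the unstimulated arrays, and neutrophil markers -1.33 to -1.03 and 1.21 to 2.59. The deposited values are relative to each probe set's median, so it cannot be read from them which markers were undetected. The part of other cell types in the results below was not tested.

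The proteasome is the protease that degrades ubiquitin-tagged proteins in the cytosol and nucleus and supplies peptides for presentation on MHC class I molecules. Its 20S core stacks rings of alpha subunits, which gate the entrance, around rings of beta subunits, some of which cut the substrate. The 19S cap recognises, unfolds and feeds in tagged proteins. In lymphocytes and after interferon gamma, the inducible catalytic subunits encoded by Psmb8, Psmb9 and Psmb10 take the place of Psmb5, Psmb6 and Psmb7 to form the immunoproteasome.

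Transcripts of the constitutive core, of the cap and of most assembly factors were higher in IL-18 generated cells. None of the inducible catalytic subunits was called higher. At a limma adjusted p below 0.05, 14 of 15 constitutive core genes and 16 of 17 cap genes rose, with medians of 0.80 and 0.71 on the log2 scale. None of Psmb8, Psmb9 and Psmb10 rose, and their changes were 0.22 ± 0.09, -0.20 ± 0.08 and -0.23 ± 0.08. Over all 51 genes, 43 rose, 2 fell and 6 did not pass. The same test called 19.7% of all genes higher and 16.7% lower, so that 45 of the 51 were called in either direction against 36.4% of all genes. The median change was 0.65 for the 51 genes against -0.06 for all genes. Array values of the groups did not overlap for 48 of the 51, against 48.6% of all genes, and the IL-18 arrays were the higher ones for 45, against 22.9%.

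The increases were moderate. Of the 43 genes that rose, 31 did so by a log2 change of at least 0.5, which 11.3% of all genes reached, and 9 by at least 1, which 3.62% of all genes reached. The largest increase of the 51 was that of Psmg2, 3.13-fold. Without Psma8, the changes of core and cap genes ran from 0.18 for Psmc3 to 1.47 for Psmc6. Core and cap subunits assemble in fixed proportions, of which these transcript changes give no measure.

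**Figure D1:**
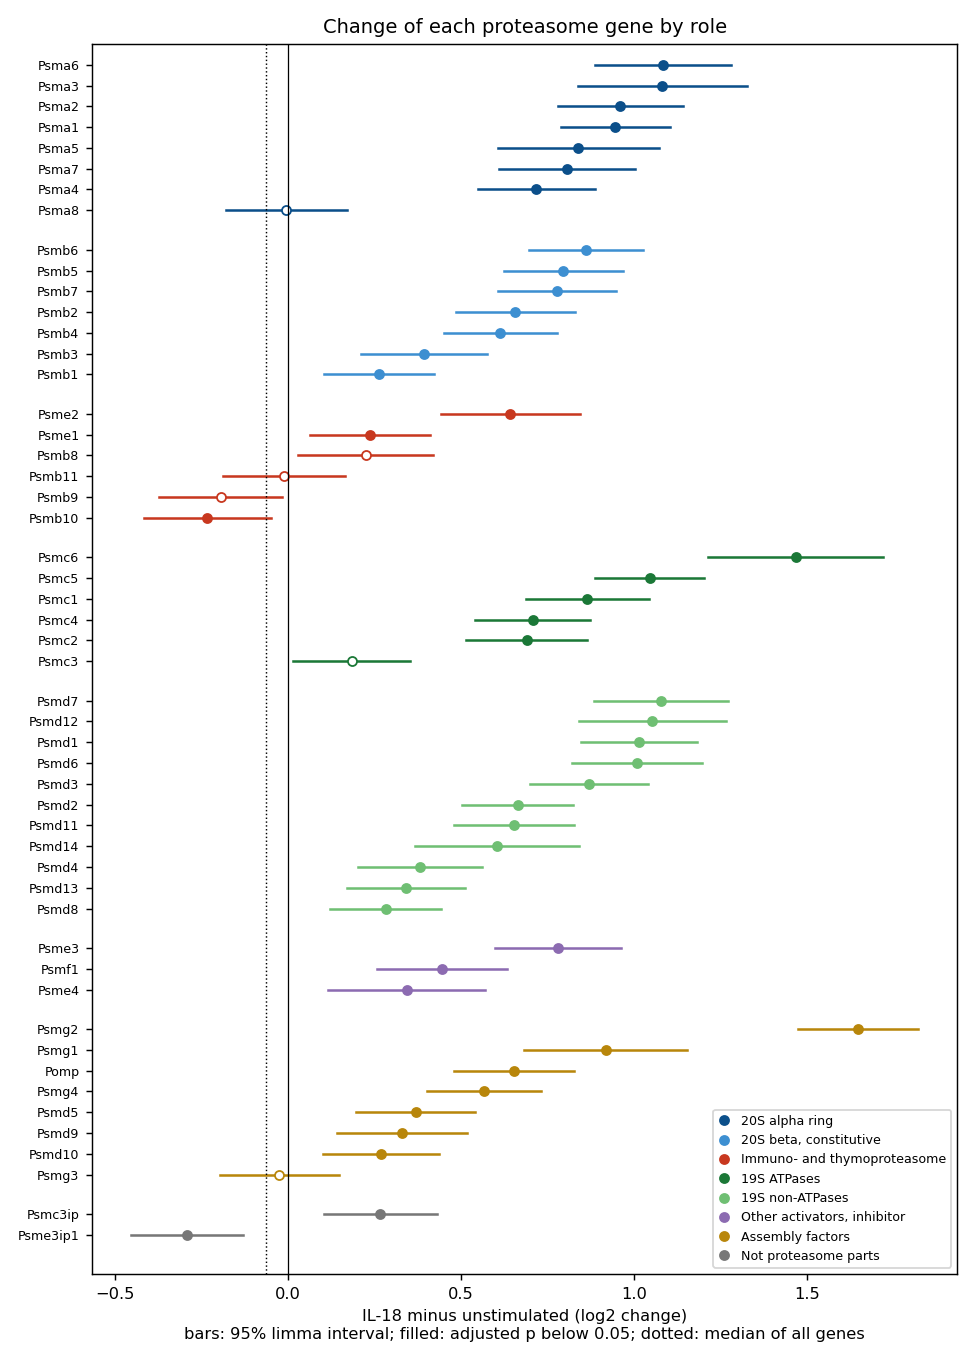
Log2 change (IL-18 minus unstimulated, 3 arrays per group) of the 51 genes by role, with the 95% limma interval as a bar, filled points at an adjusted p below 0.05 and the median of all genes dotted. Core and cap genes lie to the right with medians of 0.80 and 0.71, and Psmb8, Psmb9 and Psmb10 lie between -0.23 and 0.22.

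**Figure D2:**
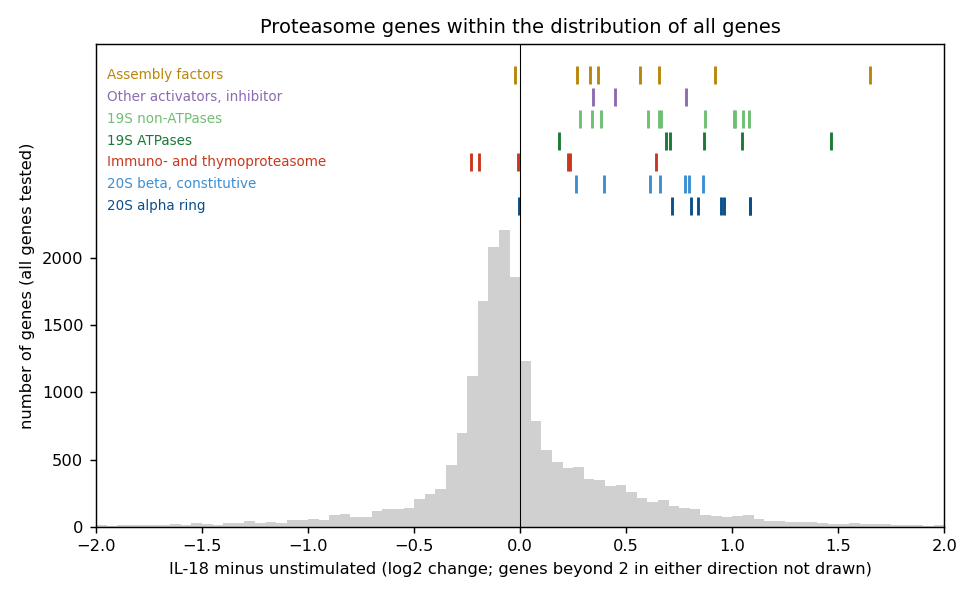
Histogram of the log2 changes of all genes tested in bars, with 284 genes beyond 2 in either direction not drawn, and 1 tick for each of the 49 proteasome genes in rows by role above it. The peak of all genes sits just left of 0 (median -0.06), and most proteasome ticks stand right of it (median 0.66).

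The alpha ring changed evenly, with an SD of 0.14 between its broadly expressed genes against 0.22 for the constitutive beta genes and 0.43 for the ATPases of the cap. All 7 of the broadly expressed alpha genes, Psma1 to Psma7, rose, by 0.72 to 1.08 with a median of 0.95. Psma6 had the largest change. Its values were 0.51, 0.50 and 0.44 on IL-18 arrays 1 to 3 and -0.71, -0.44 and -0.66 on unstimulated arrays 1 to 3, in log2 units relative to its median over the 6 arrays. Every IL-18 array lay above every unstimulated array, and the change was 1.08 ± 0.09, or 2.12-fold (limma adjusted p 5.03e-06).

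Because each probe set is centred on its median, the lowest array of the higher group and the highest of the lower group mirror each other around 0 wherever a gene has 1 probe set and its groups are apart. The distance between groups carries the information, not the sign of a value. Psma3 (1.08 ± 0.11), Psma2 (0.96 ± 0.08) and Psma1 (0.95 ± 0.07) followed Psma6, then Psma5 (0.84 ± 0.10), Psma7 (0.81 ± 0.09) and Psma4 (0.72 ± 0.08). Psma8, a testis-specific alpha subunit, was the exception, with values of 0.03, 0.04 and -0.10 on the IL-18 arrays and -0.03, -0.06 and 0.08 on the unstimulated ones. Its groups overlapped, and its change of -0.01 had an interval from -0.18 to 0.17 (95%), apart from the intervals of the other alpha genes.

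The constitutive beta genes all rose as well, but by less and less evenly. The 7 changes ran from 0.26 to 0.86 with a median of 0.66. The 3 catalytic subunits were the highest of them and close together, at 0.86 ± 0.07 for Psmb6, 0.80 ± 0.08 for Psmb5 and 0.78 ± 0.08 for Psmb7. The structural subunits followed, with Psmb2 at 0.66 ± 0.08, Psmb4 at 0.61 ± 0.07 and Psmb3 at 0.39 ± 0.08. Psmb1 had the smallest change. Its values were 0.20, 0.12 and 0.10 on the IL-18 arrays and -0.12, -0.10 and -0.15 on the unstimulated ones, which do not overlap but lie close, for a change of 0.26 ± 0.07 (limma adjusted p 0.0149). Without IL-18 replicate 1 this adjusted p was 0.0691, and Psmb1 no longer passed.

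At the catalytic sites, each inducible gene was set against the constitutive gene whose place its product takes. Psmb5, of the chymotrypsin-like site, had 0.46, 0.33 and 0.47 on the IL-18 arrays and -0.44, -0.35 and -0.33 on the unstimulated arrays. Its inducible partner Psmb8 had 0.23, 0.01 and 0.28 against -0.10, -0.01 and -0.03. For Psmb5 the groups stood far apart, while for Psmb8 IL-18 array 2 lay just above the highest unstimulated array. Psmb8 did not pass (limma adjusted p 0.0711). It did pass without IL-18 replicate 2 (change 0.30, limma adjusted p 0.0269) and, narrowly, with quantile normalization or median centring (0.0494 and 0.0479), over a range of 0.0269 to 0.233.

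Psmb6, of the caspase-like site, had 0.37, 0.44 and 0.44 on the IL-18 arrays and -0.49, -0.37 and -0.47 on the unstimulated arrays. Its partner Psmb9 had -0.12, -0.25 and -0.03 against 0.10, 0.03 and 0.06. Here the groups were apart in opposite directions, but Psmb9 did not pass (limma adjusted p 0.0817) except with array weights (0.0433), over a range of 0.0433 to 0.290. Psmb7, of the trypsin-like site, had 0.37, 0.37 and 0.32 on the IL-18 arrays and -0.45, -0.32 and -0.49 on the unstimulated arrays. Its partner Psmb10 had -0.07, -0.23 and -0.05 against 0.12, 0.19 and 0.05. Psmb10 fell by a small amount, to 0.85-fold, and its limma adjusted p of 0.0477 was just under the threshold. That call ended when any of the 6 arrays was left out, with the replicate number as a block and under both other scalings, over a range of 0.0400 to 0.192.

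The difference between partners was larger than the spread between arrays at all 3 sites. Psmb8 minus Psmb5 was -0.22, -0.32 and -0.19 on the IL-18 arrays and 0.34, 0.34 and 0.31 on the unstimulated arrays, a shift of -0.57 ± 0.07. Psmb9 minus Psmb6 was -0.48, -0.69 and -0.47 against 0.59, 0.40 and 0.53, a shift of -1.06 ± 0.09. Psmb10 minus Psmb7 was -0.44, -0.60 and -0.37 against 0.57, 0.51 and 0.54, a shift of -1.01 ± 0.08. In no pair did the groups overlap.

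These shifts correspond to ratios of inducible to constitutive transcript of 0.67, 0.48 and 0.50 relative to the unstimulated cells. A two-sided exact permutation test gave p = 0.1 for each, adjusted p = 0.1 over the 3 pairs, which is the smallest value that 3 arrays against 3 allow. With the differences entered into the fit of all genes, a test added after the data were seen, limma adjusted p was 0.00012, 6.36e-06 and 4.66e-06. The ratios compare changes only: since values are relative to each probe set's median, they do not say which partner was more abundant. Monocyte and neutrophil markers fell on the same arrays (medians -2.31 and -2.99), and their part in these shifts was not tested.

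**Figure D3:**
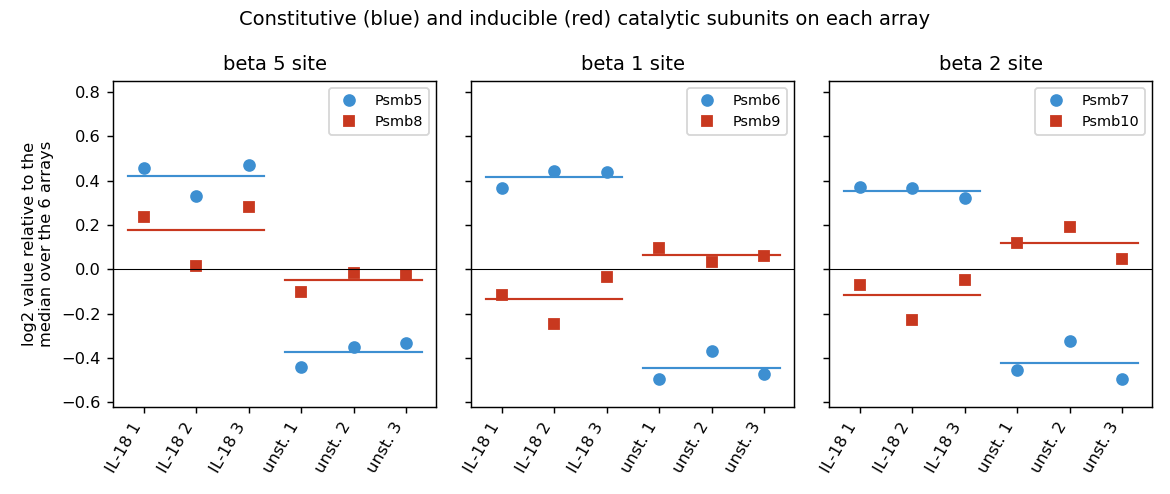
Log2 value relative to the median over the 6 arrays for the constitutive (circles) and inducible (squares) subunit of each catalytic site, by array, with group means as lines. The constitutive genes rise from the unstimulated arrays (unst.) to the IL-18 arrays by 0.78 to 0.86, while the inducible genes shift by -0.23 to 0.22.

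Promoter sequences of these partners and of the rest of the family were searched for short motifs. Whether any motif bears on the changes was not tested. Psmb7 was without a window. RefSeq windows of 300 bases (250 before to 50 after the transcript start, GRCm38.p6) were found for 43 of the 51 genes. The antioxidant response element, searched as TGACNNNGC on both strands, is the site through which NFE2L1 and NFE2L2 activate proteasome genes. Among the 11 constitutive core genes with a window, this element was present in 2, Psmb5 and Psmb6. It was also present in Psmc6, the cap gene with the largest increase, and in Psmd12, Psmd9 and Psme4, which are not shown. In the stretches below, 5′ to 3′ on the gene's strand, capitals mark the matched letters. Psmb5 is shown at chr14:54617996-54618095 (minus strand), Psmb6 at chr11:70525327-70525356 (plus strand, within the annotated gene) and Psmc6 at chr14:45329574-45329673 (plus strand, where the match reads on the opposite strand).
Psmb5: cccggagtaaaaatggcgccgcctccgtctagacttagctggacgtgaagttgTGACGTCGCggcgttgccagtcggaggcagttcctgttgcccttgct
Psmb6: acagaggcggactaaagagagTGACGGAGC
Psmc6: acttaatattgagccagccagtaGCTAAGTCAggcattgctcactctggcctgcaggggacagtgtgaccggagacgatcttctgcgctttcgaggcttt

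The inducible partners Psmb8, Psmb9 and Psmb10 had no such letters in their windows. Since only 14% of all genes with a window held the antioxidant response element, its absence does not set these genes apart. Psmb8, Psmb9 and Psmb10 each matched 1 of the 6 motifs searched, Psmb9 the CCAAT box bound by NF-Y. Psmb8 held a gamma-activated site, the letters bound by STAT factors after interferon, searched as TTCNNNGAA on both strands. Psmb10 held an E-box, the letters CACGTG bound by MYC and related factors. Psmb8 is shown at chr17:34198095-34198194 (plus strand) and Psmb10 at chr8:105938413-105938512 (minus strand), with the matches in capitals.
Psmb8: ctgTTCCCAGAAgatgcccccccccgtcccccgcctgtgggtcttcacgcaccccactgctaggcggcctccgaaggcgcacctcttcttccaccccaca
Psmb10: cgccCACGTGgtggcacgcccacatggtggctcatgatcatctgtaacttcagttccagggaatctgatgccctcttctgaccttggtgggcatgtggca

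The shares over the family were set beside those over all genes with a window. The antioxidant response element was in 6 of the 43 family genes with a window (14%), the share found in all 27025 genes with a window (14%). The interferon response element, searched as GAAANNGAA, was in 8 (18.6%) against 9.76%. The CCAAT box was in 16 (37.2%) against 41.1%, and the E-box in 5 (11.6%) against 8.09%. The gamma-activated site was in 3 (6.98%) against 9.55%, and the NF-kB site in 6 (14%) against 9.55%. Among the 15617 measured genes with a window, the antioxidant response element was in 15.2% and the interferon response element in 9.2%. Shares there were 41.7% for the CCAAT box, 9.5% for the E-box, 8.98% for the gamma-activated site and 11% for the NF-kB site. Of the 25 constitutive core and cap genes with a window, all of which rose, 4 held the antioxidant response element (16%). The CCAAT box was in 10 of those 25 (40%) and in 41.1% of all genes, and the E-box in 1 of 25 (4%) and 8.09%. The interferon response element was in 4 of 25 (16%). The gamma-activated site was in 1 of 25 (4%) and 9.55% of all genes, and the NF-kB site in 5 of 25 (20%) and 9.55%. All were searched on both strands, and a window may hold several. A gene with several windows counted once if any of them matched, so it had more chances of a match. These counts of letters were not tested and say nothing of binding, and sites outside the windows were not searched.

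Of the remaining inducible parts, the PA28 activator subunits were both called higher. Psme2 (PA28 beta) had 0.29, 0.23 and 0.52 on the IL-18 arrays and -0.23, -0.33 and -0.32 on the unstimulated arrays, so that the groups were well apart, and rose by 0.64 ± 0.09. Psme1 (PA28 alpha), with which it forms a ring, had 0.13, 0.06 and 0.25 against -0.06, -0.11 and -0.10. Its groups did not overlap but its change, 0.24 ± 0.08, was small (limma adjusted p 0.0359). Psme1 did not pass with the replicate block (adjusted p 0.0543) or when any array other than IL-18 replicate 2 was left out, over a range of 0.0155 to 0.145. Psmb11, the catalytic subunit of the thymus epithelium, had a change of -0.01 with an interval from -0.19 to 0.16, and its groups overlapped.

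IL-18 array 2 was the lowest of the IL-18 arrays for all 5 of Psmb8, Psmb9, Psmb10, Psme1 and Psme2. Among the 14 broadly expressed constitutive core genes it was the lowest for 4, and for 9 of 17 cap genes. Without it, the median change of the 3 inducible catalytic genes was -0.14 instead of -0.20.

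In the cap, ATPase genes spread most. These subunits form the ring that unfolds substrates. Psmc6 had 0.61, 0.56 and 0.72 on the IL-18 arrays and -0.97, -0.56 and -0.97 on the unstimulated arrays. The groups were more than 1 log2 unit apart, and the change of 1.47 ± 0.11, or 2.76-fold, was exceeded by 1.36% of all genes (limma adjusted p 3.66e-06). Psmc5 rose by 1.05 ± 0.07, Psmc1 by 0.86 ± 0.08, Psmc4 by 0.71 ± 0.08 and Psmc2 by 0.69 ± 0.08. Psmc3 was the 1 ATPase gene that did not pass, with 0.09, 0.02 and 0.16 on the IL-18 arrays and -0.13, -0.02 and -0.12 on the unstimulated arrays. Its change of 0.18 ± 0.08 had an interval from 0.02 to 0.35, apart from those of the other 5 ATPase genes. It passed without unstimulated replicate 2 (limma adjusted p 0.0481, range 0.0481 to 0.250).

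All 11 non-ATPase cap genes rose, with a median of 0.66. The 8 genes of the lid, which removes ubiquitin chains, changed by 0.28 to 1.08, and the 3 of the base, Psmd1, Psmd2 and Psmd4, by 0.38 to 1.01. Psmd7, the partner of the deubiquitinase subunit in the lid, had 0.57, 0.58 and 0.44 on the IL-18 arrays and -0.68, -0.44 and -0.51 on the unstimulated arrays, clearly apart, and rose by 1.08 ± 0.09. The scaffold and lid genes Psmd12, Psmd1, Psmd6 and Psmd3 rose by 1.05 ± 0.10, 1.01 ± 0.08, 1.01 ± 0.08 and 0.87 ± 0.08. Psmd14, the deubiquitinase itself, rose by 0.60 ± 0.11, beside Psmd2 at 0.66 ± 0.07 and Psmd11 at 0.65 ± 0.08. Psmd4, a ubiquitin receptor, and Psmd13 rose by 0.38 ± 0.08 and 0.34 ± 0.08. Psmd8 had the smallest change, with 0.18, 0.11 and 0.13 on the IL-18 arrays against -0.13, -0.11 and -0.20, groups that were apart by a narrow margin, and rose by 0.28 ± 0.07 (limma adjusted p 0.0108).

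**Figure D4:**
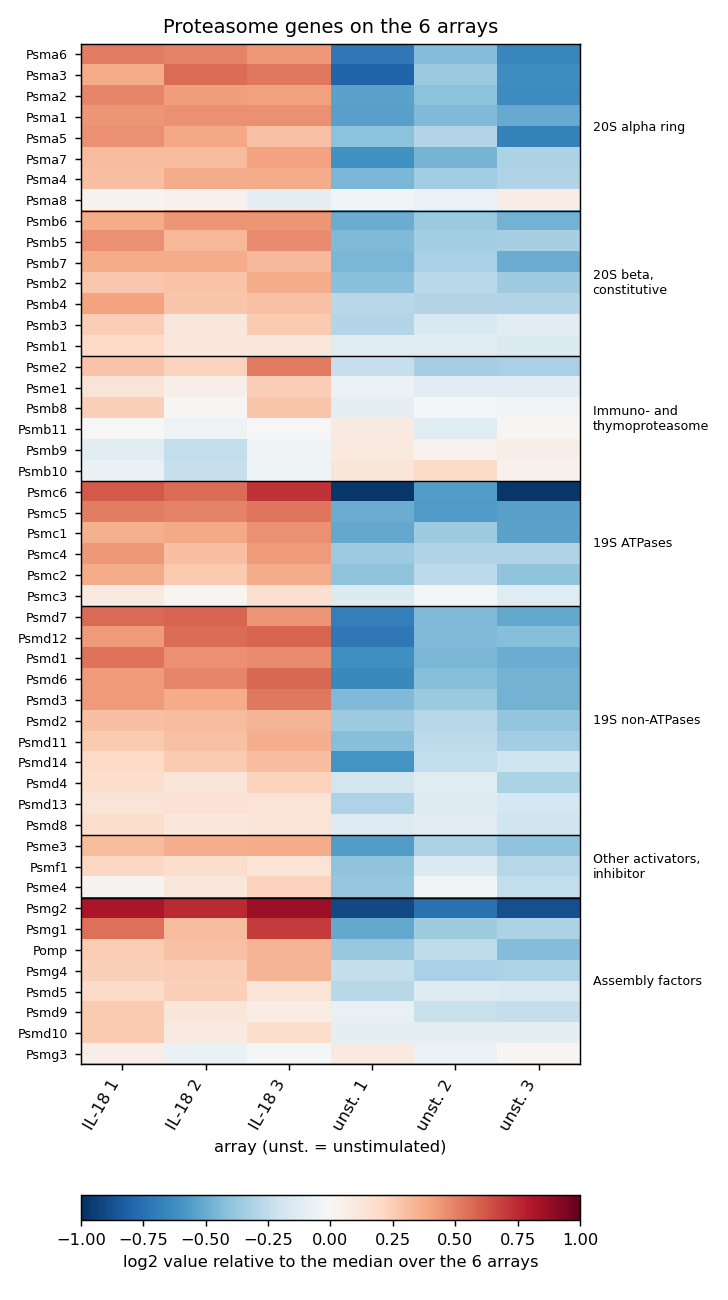
Log2 value relative to the median over the 6 arrays (red above, blue below) of the 49 proteasome genes, in rows by role, on each array in columns. Core genes other than Psma8, cap genes and most assembly genes are red on all IL-18 arrays and blue on all unstimulated (unst.) arrays. The row block of the immunoproteasome, which includes Psmb11, is pale apart from Psme2. Its median change is 0.11, and 0.22 without Psmb11.

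Other caps of the core rose too. Psme3, the nuclear activator PA28 gamma, had 0.32, 0.36 and 0.37 on the IL-18 arrays and -0.56, -0.32 and -0.40 on the unstimulated arrays, which were well separated, and rose by 0.78 ± 0.08. Psmf1, which encodes the core-binding protein PI31, rose by 0.45 ± 0.08. Psme4, the activator PA200, had 0.02, 0.11 and 0.23 against -0.39, -0.02 and -0.25. Its groups nearly touched, and its rise of 0.34 ± 0.10 (limma adjusted p 0.0237) did not pass without IL-18 replicate 2 or 3 or without unstimulated replicate 1 or 3 (adjusted p 0.0590, 0.0881, 0.0936 and 0.0694, over a range of 0.00406 to 0.0936).

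Assembly factors gave both the largest change and a gene near 0. Psmg2 and its partner Psmg1 build the alpha ring as a pair. Psmg2 had 0.81, 0.75 and 0.86 on the IL-18 arrays and -0.90, -0.75 and -0.88 on the unstimulated arrays. The gap between groups was the widest of the 51 genes, and the rise of 1.65 ± 0.08 was exceeded by 0.973% of all genes (limma adjusted p 1.49e-07). Psmg1 rose by 0.92 ± 0.11. The second chaperone pair was split: Psmg4 rose by 0.57 ± 0.07, whereas Psmg3 had 0.07, -0.06 and -0.02 on the IL-18 arrays and 0.10, -0.06 and 0.02 on the unstimulated arrays. The groups of Psmg3 overlapped fully, and its change of -0.03 had an interval from -0.20 to 0.15, apart from the interval of Psmg4 (0.40 to 0.73).

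Pomp, the maturation factor on which beta rings are built, had 0.26, 0.29 and 0.34 on the IL-18 arrays and -0.38, -0.26 and -0.43 on the unstimulated arrays, well apart, and rose by 0.65 ± 0.08. The 3 chaperones of the ATPase ring rose by less, Psmd5 by 0.37 ± 0.08, Psmd9 by 0.33 ± 0.08 and Psmd10 by 0.27 ± 0.08. Psmd9 and Psmd10 did not pass without IL-18 replicate 1 (limma adjusted p 0.0514 and 0.0831), nor Psmd10 without IL-18 replicate 3 (0.0505).

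The 2 genes with matching names that are not parts of the particle went apart. Psmc3ip had 0.19, 0.10 and 0.08 on the IL-18 arrays and -0.17, -0.08 and -0.17 on the unstimulated arrays, and rose by 0.27 ± 0.07. It did not pass without IL-18 replicate 1 (limma adjusted p 0.0710). Psme3ip1 had -0.10, -0.15 and -0.13 against 0.10, 0.20 and 0.19, with no overlap, and fell with a change of -0.29 ± 0.07 (limma adjusted p 0.00922).

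For 5 genes the value is the mean of several probe sets that carry the same symbol. Proteasome genes have processed copies in the genome, and whether such copies were read was not tested. The probe sets gave changes of 1.09, 1.06 and 1.09 for Psma3, 0.81 and 0.86 for Psma5, 0.40 and 0.38 for Psmb3, 0.67 and 0.66 for Psmd2, and 0.74 and 0.99 for Psmc1. Only for Psmc1 did they differ by more than 0.1.

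Of 28 further genes that work with the proteasome, 21 were measured, with 14 higher, 1 lower and 6 short of the threshold, and their median change was 0.36, against 19.7% higher, 16.7% lower and a median of -0.06 over all genes. Usp14, a deubiquitinase on the base of the cap, rose by 1.08 ± 0.12 from -0.91, -0.44 and -0.51 on the unstimulated arrays to 0.45, 0.48 and 0.44 on the IL-18 arrays, with no overlap. Of other cap-binding proteins, chosen after their values were seen, Txnl1 rose by 1.07 ± 0.08 and Uchl5 by 0.81 ± 0.10. Sem1, a small lid subunit outside the naming rule, changed by 0.19 ± 0.09, short of the threshold (limma adjusted p 0.118). The transcription factor genes went in opposite directions. Nfe2l1, whose product restores proteasome gene expression when proteasome activity is short, had 0.70, 0.58 and 0.84 on the IL-18 arrays and -0.78, -0.58 and -0.67 on the unstimulated arrays, with no overlap, and rose by 1.38 ± 0.09. Nfe2l2, which encodes the oxidative stress factor NRF2, had -0.11, -0.27 and -0.21 against 0.11, 0.25 and 0.30, and fell with a change of -0.42 ± 0.08.

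Among 8 genes that induce the immunoproteasome or act beside it in antigen processing, 7 were measured, of which 2 rose, 1 fell and 4 did not pass. Their median change was -0.10. The 3 calls among 7 genes are near the share of all genes called in either direction (36.4%), and the 2 increases near the share called higher (19.7%). Irf1, an interferon-induced activator of Psmb9, had -0.51, -0.63 and -0.35 on the IL-18 arrays and 0.43, 0.49 and 0.35 on the unstimulated arrays, clearly apart, and fell with a change of -0.92 ± 0.09. Erap1, which trims peptides, rose by 0.44 ± 0.08, and Tap1, a chain of the peptide transporter, by 0.34 ± 0.09. Tap2 (-0.11 ± 0.08), Tapbp (-0.10 ± 0.08), B2m (-0.11 ± 0.07) and Nlrc5 (0.16 ± 0.14) did not pass.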

How the data were processed

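Total RNA of 6 sorted NK cell preparations was hybridised to 1-colour Affymetrix arrays after WT Terminal Labeling, per the labels. The deposited table gives log2 values for 28815 probe sets, a scale read from the values and not stated by the authors. The methods of summarization and normalization were not given in the sources used here. Every probe set's median over the arrays is 0 (within 5.0e-07), so no expression level, detection call or filter on dim probes is available, and the number of arrays limits the precision. Array medians over genes lay between -0.025 and 0.039, and no further normalization was applied.

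Probe sets were named from the platform annotation: 21788 had 1 symbol, 1597 several and 5430 were not listed. Gene values are means of probe sets. All 57 probe sets of the 51 genes matched the RefSeq gene table by identifier, and promoter windows come from RefSeq (GRCm38.p6). The contrast was fitted to all 6 arrays without covariates by limma 3.58.1 (R 4.3.3), with Benjamini-Hochberg adjustment over 19943 genes; intervals are 95%. The procedure was tested on simulated data. Tables were made with Python 3.11.15, pandas 2.3.3, numpy 2.4.6 and scipy 1.17.1, figures with matplotlib 3.10.9.

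P-values measure the spread between these arrays; the design text calls the preparations independent. Replicate numbers were not taken as pairs of arrays. The members, roles and lists were chosen with earlier results of these data known. Named with values on every array, by rule, were the catalytic pairs, Psme1, Psme2, Pomp and, per role, the genes with the largest increase and the smallest or most negative change; from the further lists, up to 2 largest changes per direction that passed. Alternatives covered limma's variance options, array weights, scaling, probe set handling, the fold threshold, a replicate block and leaving out each array.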

Additional observations from a re-analysis of the deposited data

Results flagged for a closer look

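A probe set annotated to both Psme2b and Psme2 was outside the gene comparisons because it carries 2 symbols. Its values were 0.08, 0.10 and 0.37 on the IL-18 arrays and -0.12, -0.13 and -0.08 on the unstimulated arrays, a difference of 0.29 with no overlap, beside 0.64 for the probe set of Psme2 alone. It was not tested, and it drew attention because its IL-18 arrays all lay above the unstimulated arrays in data that no comparison used.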

How the results depend on the processing

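Of the 51 genes, 41 kept their side of the threshold under every refit by gene, up to 13 for each, and no called gene changed direction. The fold thresholds and the fit of single probe sets did not enter this count. Of the 43 genes that rose, 9 did so by at least 1 on the log2 scale, including 2 core genes, 6 cap genes, 1 assembly factor and 0 immunoproteasome genes. At a threshold of 0.5, 4 assembly factors and 1 immunoproteasome gene remained higher, and 0 genes were lower at either threshold. The count of lower genes was 1 instead of 2 under quantile normalization, median centring and the replicate block, and 3 with array weights, which added Psmb9. With the replicate block, 1 immunoproteasome gene rose instead of 2; it changed the call of Psme1 and Psmb10 and of no other gene. Correlations of same-numbered arrays were 0.238, 0.007 and -0.02, and those of differently numbered arrays ran from -0.293 to 0.248. The numbers were therefore not taken as pairs, though 3 arrays per group cannot exclude pairing.

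Leaving out each array in turn gave 38 to 43 higher genes, 1 lower gene each time, and 13 to 14 core, 16 to 17 cap, 5 to 7 assembly and 1 to 3 immunoproteasome genes called higher. Medians then ran from 0.76 to 0.83 for ATPases, 0.65 to 0.70 for non-ATPases and 0.88 to 0.95 for alpha genes. They ran from 0.62 to 0.70 for constitutive beta, 0.46 to 0.49 for assembly and 0.75 to 0.82 for core genes including Psma8. For immunoproteasome genes including Psmb11, they ran from 0.07 to 0.14. On all arrays that median was 0.11, and 0.22 without Psmb11. With genes of 1 probe set alone, the medians were 0.71 for ATPases, 0.76 for non-ATPases and 0.72 for beta genes, since fewer genes entered. Median centring gave 0.50 for assembly factors. The shifts of the catalytic pairs, -0.57, -1.06 and -1.01, passed in limma (adjusted p 0.00012, 6.36e-06 and 4.66e-06) where the exact test cannot. Levels and detection cannot be read from centred values, so a change near 0 may belong to a gene not expressed in either group.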
